A study of Phyllotreta striolata with 15 samples.

Results

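The genes described here were well expressed in pupae and in adults of both sexes of the striped flea beetle, Phyllotreta striolata, and much lower in eggs and larvae. They were chosen on the authors' mean TPM per group, where TPM gives a gene's share of all transcripts of a library, corrected for gene length and scaled to a fixed total. A gene was taken when its lowest mean among pupae, female adults and male adults was at least 5 TPM, when those 3 means lay under 3-fold apart, and when the lowest of them was at least 3 times the higher mean of eggs and larvae. Of 11862 genes in the table, 88 met these conditions, and 7422 met the first, 4382 the first and second. RNA was taken from whole bodies in 5 groups of 3 libraries each: eggs, larvae, pupae, female adults and male adults. The sources used here give no age within a stage, strain, treatment or number of animals per library, and the submitters describe the replicates as biological but not how they were collected. P-values therefore set a difference against the spread between these libraries, which may be partly technical. That spread was estimated per gene over all 5 groups together, not from the groups compared alone.

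Beetles undergo complete metamorphosis: in the pupa most larval tissues are broken down or remodelled, and adult structures such as wings, compound eyes, legs and flight muscle are built. A flea beetle larva lives in soil and feeds on roots, whereas the adult walks, jumps with enlarged hind legs, flies and feeds on leaves. The stages in which this set is high are thus those in which the adult body is built and used. The tables used here hold identifiers without gene names, so the 88 genes are described by level and pattern and no role is given for any of them.

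Library totals ran from 16509113 to 32598781 counts. Larva replicate 1 stood apart from its group, with a Spearman's rho across genes of 0.821 and 0.852 with the other larval libraries, which had 0.958 with each other. Its rho was 0.654 to 0.669 with female adults and 0.709 to 0.795 with male adults. Larva replicates 2 and 3 had 0.775 to 0.807 with female adults and 0.546 to 0.704 with male adults. The number of genes meeting the rule and the tests of larvae against eggs are therefore also given without it. The count columns carry 3 name prefixes: larvae share theirs with adults, and pupae and eggs each have their own. Hence in comparisons across prefixes a difference between prefixes and one between stages cannot be told apart. In whole bodies, more cells of a type and more RNA per cell cannot be told apart either.

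The group means that chose the genes are given first, as a description. The median gene of the set had a mean of 0.991 TPM in eggs, 2.41 TPM in larvae, 25.3 TPM in pupae, 24.4 TPM in female adults and 30.9 TPM in male adults. Pupae and adults had means from 5.01 TPM upward, reaching 3043 TPM in pupae, 2215 TPM in female adults and 2457 TPM in male adults, against at most 108 TPM in larvae and 59.1 TPM in eggs. The lowest of the pupal and adult means was a median of 5.51 times the higher of the egg and larval means. In 28 genes this ratio was 10 or more, in 21 it was 5 to under 10 and in 39 it was under 5. Only 16 of the 88 stayed under 1 TPM in both eggs and larvae, 38 reached 1 to under 5 TPM in one of them, and 34 reached 5 TPM or more. The set was thus made mostly of genes read at a low level before pupation, not of genes absent there.

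**Figure D1:**
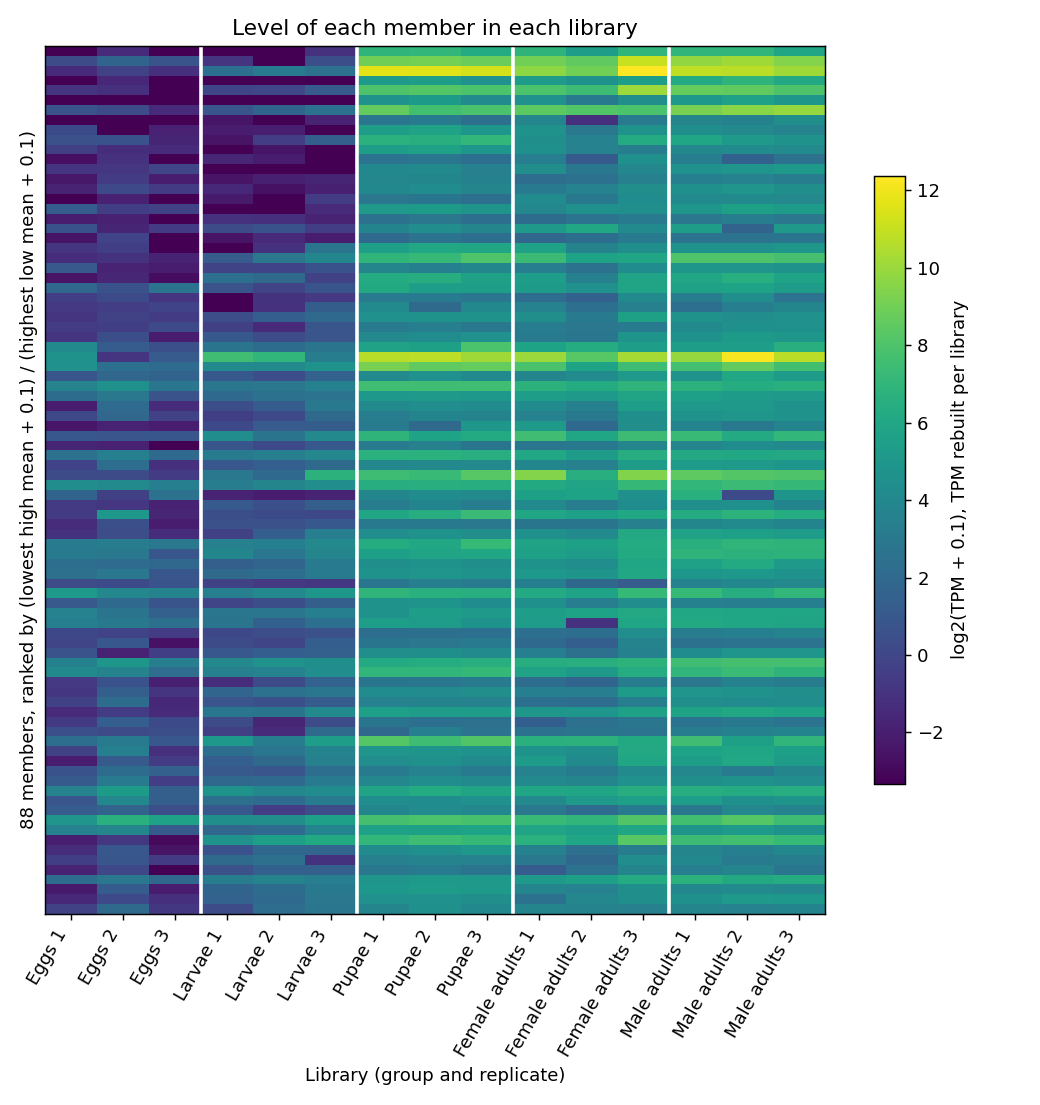
Level of each of the 88 genes (rows, ordered by the ratio of the lowest pupal or adult mean to the higher egg or larval mean, each plus 0.1) in each of the 15 libraries (columns), as log2(TPM + 0.1) with TPM rebuilt per library from the counts. The step between larvae and pupae is seen in nearly all rows, and female adult replicate 2 is darker (lower) than the other female libraries in many of them, with 65 genes at their lowest female level there.

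Per-library TPM were rebuilt from the counts and matched the deposited means with a median deviation of 0.0690% over the set's means of at least 1 TPM, and 95% of these lay within 1.54%; the largest deviation was 31.5%, in CAG9856017.1. Together the 88 genes took 1.04%, 0.993% and 0.919% of all TPM in pupal libraries, 0.673%, 0.383% and 1.47% in female adult libraries and 0.941%, 1.36% and 0.895% in male adult libraries. In larvae they took 0.0564%, 0.0520% and 0.0779%, and in eggs 0.0344%, 0.0490% and 0.0189%. The lowest pupal or adult share, in female adult replicate 2, was above every larval and egg share. On CPM, which are read counts scaled to library size and here also by TMM, a correction for composition, all 9 pupal and adult libraries lay above all 6 egg and larval libraries in 66 of the 88 genes. Among all 11440 genes tested this held for 2.39%, but the choice of genes rested on the same contrast, so nothing is read from the difference. Without larva replicate 1 the numbers were 68 of the 88 and 3.51% of all genes. In the other 22 genes the lowest of the 9 libraries was female adult replicate 2 in 13 cases and female adult replicate 1 in 6, and the highest egg or larval library was larva replicate 3 in 10.

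The 4 highest genes were taken by their lowest mean among pupae, female adults and male adults, and were not the 4 highest in every group. Together they held 48.2% to 57.2% of the set's TPM in pupae, 38.8% to 60.2% in female adults and 45.4% to 61.5% in male adults. CAG9855857.1 had the highest mean of the set in pupae and in female adults, while CAG9856991.1 had it in male adults. CAG9855857.1 was at 3415, 3068 and 2645 TPM in pupae, 847, 516 and 5282 TPM in female adults and 1851, 1691 and 1125 TPM in male adults, against 5.12, 8.78 and 5.96 TPM in larvae and 0.284, 0.743 and 0.353 TPM in eggs. Its pupal and male libraries were of one order, while female adult replicate 3 was far above the other 2 female libraries. CAG9856991.1 had 1631, 1801 and 1120 TPM in pupae, 1025, 320 and 1215 TPM in female adults and 935, 4742 and 1694 TPM in male adults. Larvae held it at 185, 127 and 9.90 TPM and eggs at 26.6, 0.405 and 2.16 TPM, so that in neither early stage did the libraries agree on a level.

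CAH1184069.1 was at 495, 537 and 433 TPM in pupae, 514, 373 and 2138 TPM in female adults and 911, 1140 and 693 TPM in male adults, against 0.412, 0 and 1.24 TPM in larvae and 1.13, 3.17 and 1.58 TPM in eggs. It again had its highest female value in female adult replicate 3. CAG9859905.1 stood at 390, 193 and 230 TPM in pupae, 348, 278 and 241 TPM in female adults and 570, 777 and 954 TPM in male adults, against 1.70, 3.19 and 5.75 TPM in larvae and 1.49, 1.10 and 0.274 TPM in eggs. Here the 3 male libraries lay above all pupal and female ones.

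The sharpest step by the ratio used for ranking belonged to CAG9863446.1. It had 125, 134 and 81.3 TPM in pupae, 116, 43.5 and 130 TPM in female adults and 126, 130 and 58.5 TPM in male adults, against 4 counts over all larval and 3 counts over all egg libraries. CAH1184069.1 came second. One gene, CAG9861616.1, had no count in any egg or larval library, and 25.2, 37.7 and 17.7 TPM in pupae, 24.04, 8.17 and 21.3 TPM in female adults and 33.3, 50.3 and 32.1 TPM in male adults; it was picked out after its values were seen.

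The limits of the rule cut through a continuum. CAG9857129.1 was just inside the minimum level, with a lowest mean of 5.01 TPM, and CAG9864403.1 just outside, with 4.98 TPM and a ratio of 14.4 to the larger early mean. At the limit on the spread, CAG9863768.1 was inside with pupal and adult means 2.99-fold apart, and CAG9861819.1 outside at 3.06-fold, with 114 TPM in pupae, 247 TPM in female adults and 348 TPM in male adults. At the limit on the ratio, CAG9855665.1 was inside at 3.01 and CAG9858627.1 outside at 2.97. The number of genes depended on the scale and on single libraries. On mean TMM-scaled CPM 43 genes met the same limits, 40 of them among the 88. Leaving out larva replicate 3 gave 124 genes, leaving out female adult replicate 3 gave 62, and leaving out larva replicate 1 gave 79, of which 75 were among the 88.

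Larvae and eggs were compared to see how the low side divided. The choice of genes put a ceiling on both stages but did not set one against the other. The lean among the calls was towards larvae: 37 of 88 were called higher in larvae and 4 lower (edgeR's quasi-likelihood test at 2-fold or more, with p adjusted across the whole table by Benjamini-Hochberg and under 0.05). Among all 11440 genes tested, 31.9% were called higher and 27.3% lower in larvae. Among the other 4294 genes that met the conditions on pupae and adults but not the ratio to the early stages, 24.5% were called higher and 27.6% lower. The lean towards larvae was thus larger in the set, at 42.05% against 4.55%, than in either background, and this difference was not given a test.

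The median log2 change over the 88 genes was 1.15, or 1.21 with genes absent from one stage at their bound against 3 counts, while that of all genes tested was 0.02. With library size alone in place of TMM the medians were 0.67 and -0.49, so the set lay 1.13 and 1.16 above all genes on the log2 scale under these scalings. Under TMM this distance was 0.97 without egg replicate 3, 1.02 without larva replicate 3, 1.59 without larva replicate 1 and 1.79 without egg replicate 2. The estimate was above 0 in 72 of 88 genes under TMM, against 5759 of all 11440 genes tested. By mean TPM 59 of the 88 were higher in larvae and 28 in eggs, a count not taken over all genes. With library size alone 29 were called higher and 7 lower, against 25.9% and 37% of all genes. The 37 genes called higher had a median log2 change of 3.03 and a range from 1.01 to 8.56, and in 32 of them no egg library reached a larval one, as in 80% of all genes called higher in larvae. Without larva replicate 1, 36 genes were called higher and 4 lower, against 25.8% and 29.6% of all genes, and 35 of the 36 and 3 of the 4 were the same calls. Larvae and eggs carry different column prefixes, so prefix and stage cannot be told apart here.

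CAG9862257.1 differed most. It had 25.8, 46.6 and 73.7 TPM in larvae against 0.152, 0.478 and 0.0315 TPM in eggs, from 16886 counts in larvae and 68 in eggs, a log2 change of 8.56 ± 0.92 (SE, n = 3 each, adjusted p = 8.71e-06, edgeR). Every larval library was above every egg library, and the gene went on to 132, 182 and 140 TPM in pupae, 102, 60.5 and 316 TPM in female adults and 175, 199 and 145 TPM in male adults. Female adult replicate 2 was below larva replicate 3, so larvae and adults overlapped. Without larva replicate 1 the log2 change was 8.79. CAG9859124.1 came next, at 7.78, 4.01 and 107 TPM in larvae against 1.09, 1.14 and 0.602 TPM in eggs, a log2 change of 5.89 ± 1.16 (SE, n = 3 each, adjusted p = 0.000788, edgeR). Larva replicate 3 alone set the size of this change: without it the log2 change was 3.45, and the gene was still called. Without larva replicate 1 the log2 change was 6.34.

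The 4 genes called lower in larvae all had low levels in both stages, at most 5.69 TPM in any egg library. CAG9858747.1 had 0.185, 0.135 and 0.199 TPM in larvae against 3.11, 0.690 and 5.69 TPM in eggs (log2 change -3.59 ± 1.29 SE, n = 3 each, adjusted p = 0.0261, edgeR). CAG9863075.1 had 0, 0 and 0.263 TPM in larvae against 2.31, 0.645 and 0.765 TPM in eggs (log2 change -3.27 ± 0.90 SE, n = 3 each, adjusted p = 0.00689, edgeR). Both were named after their values were seen, as no gene called lower reached the 10 CPM asked of named genes. In each, no larval library reached the lowest egg library.

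**Figure D2:**
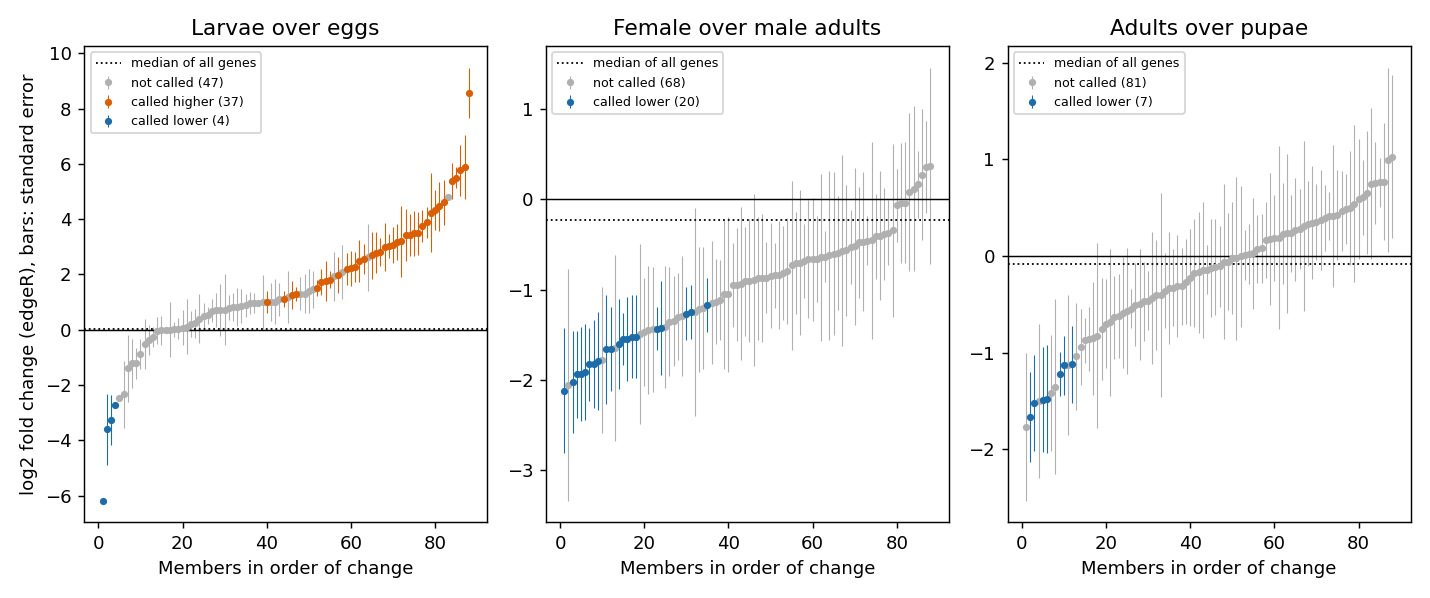
Log2 fold change of each of the 88 genes, in order of change, for larvae over eggs, female over male adults and adults of both sexes over pupae. Points are edgeR estimates, bars their standard errors (left out where a side had 3 counts or fewer), colours the calls, and the dotted line the median of all genes tested; 37 genes are called higher and 4 lower in larvae, 20 lower in females and 7 lower in adults.

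Female and male adults were compared next, as the series asks for sex-specific expression. The rule allowed either sex to be the higher one, within 3-fold on the TPM scale. Calls and estimates rest on TMM-scaled CPM, where females came out lower than in TPM. Of the 88 genes, 19 had the higher mean TPM in females but only 6 an estimate above 0. The limit thus left less room for calls higher in females than for calls lower, and no direction is read from the split. Male adults had the higher level in most of these genes. None of the 88 was called higher in females and 20 were called lower (edgeR, adjusted p under 0.05 and at least 2-fold), against 11.7% higher and 15.9% lower among all genes tested. At an unadjusted p under 0.05 the numbers were 0 and 30, against 22.3% and 24.2% of all genes, and DESeq2's Wald test called 0 and 28, against 10.2% and 20.4%. Of the other 4294 genes held to the same limits on pupae and adults, 1.14% were called higher and 5.43% lower in females, compared with 22.7% lower in the set; the difference between the sets was not tested.

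The lean of the estimates was towards males under each scaling. The estimate was below 0 in 82 of 88 genes under TMM and above 0 in 6, whereas it was above 0 in 4815 of all 11440 genes tested. The mean TPM was higher in males in 69 of 88, a count not taken over all genes. The set's median log2 change was -0.90 under TMM, against -0.23 for all genes, and -0.58 with library size alone, against 0.09 for all genes. The difference between the medians was thus -0.68 and -0.67 on the log2 scale. With a library left out under TMM, it ran from -1.26 without female adult replicate 3 to -0.56 without female adult replicate 2. In all 20 genes called lower, every female library was below every male library, as in 99% of all genes called lower in females. Over the whole set this separation was seen in 49 of 88 genes with females lower and in 0 with females higher, against 34.2% and 26.3% of all genes tested. In the 20, male adults had the highest of the 3 mean TPM, and females had the lowest of them in 13 and pupae in 7. Without larva replicate 1, which is in neither sex group, the count was again 20, against 15.5% of all genes. Of these 20, 18 were the same genes.

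CAG9863768.1 had 5.12, 4.84 and 10.4 TPM in female adults against 21.7, 18.8 and 20.3 TPM in male adults, with pupae between them at 12.6, 12.7 and 12.5 TPM. Its log2 change was -2.12 ± 0.70 (SE, n = 3 each, adjusted p = 0.0320, edgeR), with no overlap between the sexes. CAG9860598.1 had 10.7, 5.47 and 12.0 TPM in female adults against 20.0, 29.2 and 29.5 TPM in male adults, and pupae, at 21.7, 22.3 and 17.2 TPM, lay above the females and overlapped the males. Its log2 change was -2.02 ± 0.57 (SE, n = 3 each, adjusted p = 0.0163, edgeR). Single libraries and scaling decided how many genes passed. Lower in females were 3 of 88 without female adult replicate 2, against 8.04% of all genes, and 8 without female adult replicate 1, against 9.57%. They were 6 without male adult replicate 2, against 10.6%, and 8 with library size alone, against 12.1%. In these settings the share of the set called lower was thus below that of all genes, and the larger share under the main test did not hold. Without female adult replicate 3, 26 were called, against 15.3%. CAG9863768.1 was not called without female adult replicate 1 or 2 or without any 1 of the male replicates, nor with library size alone, and CAG9860598.1 not without female adult replicate 1 or 2 or male adult replicate 2.

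Adults, as the mean of both sexes, were set against pupae to see whether the level moved again after the adult emerged. The rule limited this difference too, but on TPM and not on the TMM-scaled CPM tested. Its limit need therefore not leave equal room in both directions. Few genes passed: 0 of 88 were called higher in adults and 7 lower (edgeR, adjusted p under 0.05 and at least 2-fold), against 19.9% and 21.6% of all genes tested, which were not held to that limit. At an unadjusted p under 0.05, 1 gene was higher and 13 were lower, against 29.8% and 31.8% of all genes, and DESeq2's Wald test called 0 and 8, against 21% and 22.6%. Of the other 4294 genes held to the same limits, 1.37% were called higher and 11.6% lower. The set had a median log2 change of -0.13 and all genes one of -0.09; with library size alone these were 0.23 and 0.28. The medians differed by -0.05 and -0.04 on the log2 scale under these scalings, and under TMM from -0.26 without female adult replicate 3 to 0.06 without female adult replicate 2, so no direction held.

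CAG9860992.1 had 23.8, 12.5 and 10.1 TPM in female adults and 15.3, 19.0 and 17.9 TPM in male adults, against 43.3, 51.03 and 30.7 TPM in pupae. No adult library reached the lowest pupal one, and the log2 change was -1.67 ± 0.47 (SE, n = 6 adult and 3 pupal libraries, adjusted p = 0.00937, edgeR). CAG9856974.1 had 231, 55.3 and 180 TPM in female adults and 201, 389 and 197 TPM in male adults, against 569, 374 and 403 TPM in pupae. Male adult replicate 2 lay within the pupal range in TPM and below it in TMM-scaled CPM, and the log2 change was -1.49 ± 0.54 (SE, n = 6 adult and 3 pupal libraries, adjusted p = 0.0352, edgeR). Scaled by library size alone, 2 of the 88 passed as higher and 1 as lower, against 27.3% and 16.3% of all genes, so the direction of the count depended on scaling. Leaving out pupa replicate 1, pupa replicate 3 or female adult replicate 2 left 3 calls, and leaving out pupa replicate 2 or male adult replicate 1 or 3 left 4, all lower in adults, against 18.7% to 19.5% of all genes. CAG9856974.1 lost its call without any 1 of these libraries and without female adult replicate 3, and also with library size alone, and CAG9860992.1 kept its call without each of the 15 libraries in turn. Adults and pupae carry different column prefixes, so prefix and stage cannot be told apart here either.

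**Figure D3:**
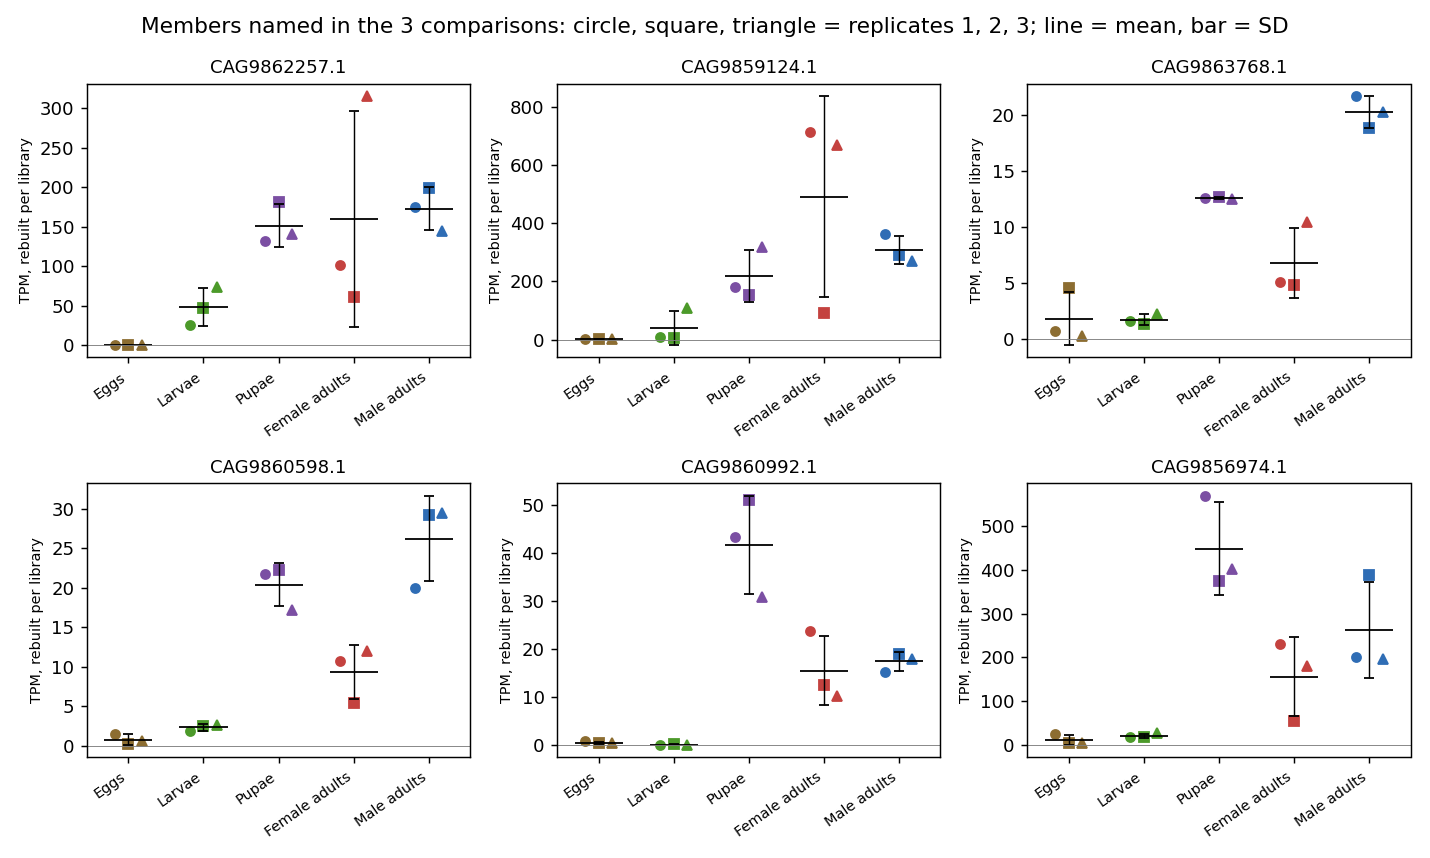
TPM rebuilt per library (linear axes) of the 6 genes named in the 3 comparisons, in eggs, larvae, pupae, female adults and male adults; symbols are the 3 replicates, the line is their mean and the bar 1 SD. CAG9862257.1 and CAG9859124.1 are higher in larvae than in eggs, CAG9863768.1 and CAG9860598.1 lower in female than in male adults, and CAG9860992.1 and CAG9856974.1 lower in adults than in pupae.

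Across the 3 comparisons, 35 of the 88 genes (39.8%) had no call in any, against 20.9% of all genes tested. Another 24 (27.3%) were called only as higher in larvae than eggs, against 11%. A further 11 (12.5%) were called both higher in larvae than eggs and lower in females than males, with no call between adults and pupae, against 5.21%. As the limit of 3-fold kept calls between pupae and adults few, nothing is read from these shares.

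Replicates varied together in this set, most of all in female adults. Female adult replicate 3 had the highest TPM of its group in 65 of 88 genes (73.9%), against 36.6% of all genes tested, and female adult replicate 2 the lowest in 65 (73.9%), against 38.2%. On TMM-scaled CPM these numbers were 65 and 59. The median gene of the set had a coefficient of variation of 47.4% over the female libraries, and genes of at least 5 TPM in females had 18.9%. In pupae the values were 16.4% and 16.1%, and in male adults 17.4% and 17.1%. On the high side the set was thus more variable than other genes in female adults, and close to them in pupae and male adults. At the low levels of larvae and eggs the values were 49.1% against 29.6% in larvae and 72.6% against 23.1% in eggs. In each group the other genes were those of at least 5 TPM there. The set's median was 2.41 TPM in larvae and 0.991 TPM in eggs, so in these stages genes of unlike level were compared. The rule works on means, so a gene raised by 1 female library can enter, and 61 of the 88 met the limits without female adult replicate 3.

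In pupae, replicate 2 had the highest TPM in 50 of 88 genes (56.8%), against 29.5% of all genes tested. On TMM-scaled CPM this lead did not hold: pupa replicates 1 and 2 were each the highest in 38 (43.2%), against 31.4% and 32.6%. Pupa replicate 3 was the lowest in 38 (43.2%) in TPM, against 19.2%. On TMM-scaled CPM it was the lowest in 59 (67.05%), against 35.8%.

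On the low side larva replicate 3 had the highest larval TPM in 60 of 82 genes (73.2%), against 56.01% of all genes tested (45 genes or 54.9%, against 33.7%, on TMM-scaled CPM), and egg replicate 2 the highest egg TPM in 54 of 83 (65.1%), against 53.1%. The median gene had 1.70, 2.36 and 3.65 TPM in larva replicates 1, 2 and 3, so in TPM larva replicate 1, which stood apart over all genes, was the lowest for this set. On TMM-scaled CPM it was the lowest in 34 of 82 genes and larva replicate 2 in 35. Taken alone, larva replicate 1 lay at least 3-fold below the lowest pupal or adult mean in 85 of 88 genes, larva replicate 2 in 83 and larva replicate 3 in 62. On TMM-scaled CPM the numbers were 57, 64 and 47.

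**Figure D4:**
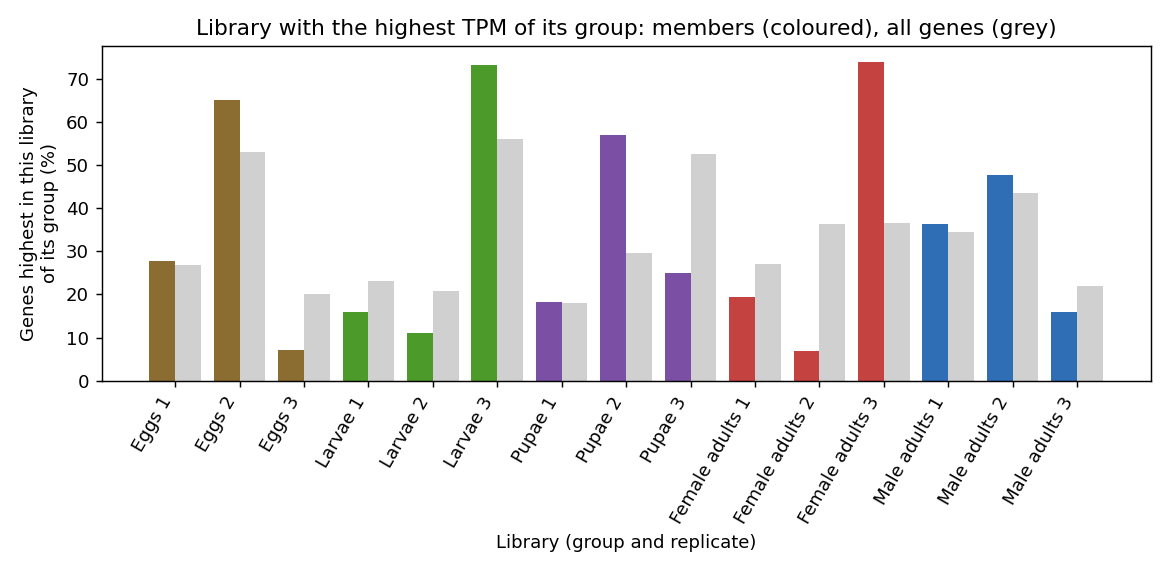
Share of genes (%) for which each library had the highest TPM of its group, for the 88 genes (coloured) and for all genes tested (grey), leaving out genes with tied values. Female adult replicate 3 takes 73.9% of the set against 36.6% of all genes, and larva replicate 3 73.2% against 56.01%.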

How the data were processed

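Reads were processed with fastp, HISAT2 and featureCounts, per the submitters' processing notes. Versions, settings, strandedness and genome build were not given in the sources used here. Raw read counts per gene and mean TPM per group were used as the authors deposited them. Count columns were matched to samples by library name. The authors' list of stage-specific identifiers was not used. Per-library TPM were rebuilt by finding, per gene, the relative length at which count-based means matched the deposited means; the rule applied to the rebuilt means returned the same 88 genes. Counts were filtered with filterByExpr, which left 11440 genes (422 dropped, all 88 kept), scaled by TMM and fitted with edgeR 4.0.16 (robust quasi-likelihood, R 4.3.3) in one model of 5 groups with 15 libraries. A standard error is the change over the square root of F. Genes were called at an adjusted p under 0.05 and 2-fold. DESeq2 1.42.0 was an alternative. The pipeline was also run on simulated data in which 200 genes were changed. Far more genes were called in these data, so that run does not show how well the calls hold here. Named by level were the 4 genes with the highest lowest mean among pupae and both adult sexes, the 2 first by ratio and those beside each limit. Genes named per comparison are the 2 most increased and the 2 most decreased of those called, with no overlap and at least 10 CPM on the higher side. No gene called lower in larvae and none higher in females or adults met this. Gene identifiers could not be matched to names, so gene families could not be examined. The members, comparisons and rules were chosen with earlier results of these data known. The total count per library limits precision for genes of few counts; standard errors also carry the spread between libraries.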

Additional observations from a re-analysis of the deposited data

How the results depend on the processing

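Of 98 alternative values for the 6 counts reported, 84 stayed within 1.5 times the main value. Many of the 98 leave out a library outside the groups compared, which enters only through the shared fit. The 84 therefore do not measure how far a count depends on the libraries compared. For female against male adults, 20 calls became 8 with library size alone, against 12.1% of all genes called lower. With a library left out they ranged from 3, without female adult replicate 2, to 26, without female adult replicate 3. All were lower in females, against 8.04% and 15.3% of all genes in those settings. For adults against pupae, 7 calls became 3 with library size alone, where the majority turned to higher in adults. The shares of all genes there were 27.3% higher and 16.3% lower. Without a minimum fold 11 were called, 1 higher and 10 lower, against 3134 higher and 3282 lower of all 11440 genes. With a library left out the calls ranged from 3 to 9, all lower. Without pupa replicate 1 there were 3, against 18.7% of all genes, and without egg replicate 2 there were 9, against 22.9%. For larvae against eggs, 41 calls ranged from 33 to 52 with a library left out. Without egg replicate 3, 29 were higher and 4 lower, against 27.1% and 26% of all genes. Without egg replicate 2, 47 were higher and 5 lower, against 31.3% and 28%. Genes meeting the rule numbered 49 at a ratio of at least 5, 65 at a lowest mean of 10 TPM, 43 on mean TMM-scaled CPM and 62 to 124 with a library left out. The cause of these shifts was not tested. With the replicate number as a block, 39 genes of the set were called in larvae against eggs, 35 higher and 4 lower. Among all 11440 genes tested, 3143 were called higher and 3054 lower. In female against male adults 15 were called, all lower, against 1295 higher and 1678 lower of all genes. In adults against pupae 5 were called, all lower, against 2215 higher and 2347 lower of all genes. Under the block CAG9863768.1 had an adjusted p of 0.0538 (edgeR). The samples share only a number: correlations of same-numbered deviations ran from -0.27 to 0.45, and 5 of 15 libraries matched best with their own number. With library size alone, calls over all genes were 41.2% higher in larvae against eggs (53.9% under TMM), 60.4% higher in females against males (42.4%) and 62.6% higher in adults against pupae (48.02%). For the 6 named genes, 102 of 120 alternative values kept their call and none changed direction; adjusted p (edgeR or DESeq2) reached 0.137 for CAG9863768.1, 0.0888 for CAG9860598.1 and 0.142 for CAG9856974.1. Genes of few counts in eggs and larvae have no firm fold.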

Other observations

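The genes in this part were picked after their values were seen. Some genes of the set were nearly missing from 1 library of a group in which the others held them well. CAG9859382.1 was at 0.366 TPM in female adult replicate 2, against 39.2 and 60.5 TPM in the other female libraries. CAG9858989.1 was at 0.341 TPM in the same library, against 8.26 and 13.8 TPM. In male adult replicate 2, CAG9858747.1 was at 0.997 TPM, against 28.04 and 98.04 TPM, and CAG9856811.1 at 3.04 TPM, against 34.2 and 42.5 TPM. The reverse was seen in egg replicate 2, which held CAG9858377.1 at 32.4 TPM, against 0.554 and 0.225 TPM in the other egg libraries. These values are given with no test.

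The relative lengths that link counts to TPM had a median of 1.19 in the set, where 1 is the median of all genes. A pair of genes was far longer than the rest by this measure, CAG9856017.1 at 36.7 and CAH1139498.1 at 23.7, while the next stood at 5.76, and 7 of 11794 genes reached the level of the shorter of the pair. For CAH1139498.1 rebuilt and deposited means matched, at 23.3 TPM in pupae, 36.3 TPM in female adults and 54.1 TPM in male adults. For CAG9856017.1 they did not: the deposited means were 27.8 TPM in pupae, 21.1 TPM in female adults and 26.8 TPM in male adults, while the counts gave 19.02, 24.6 and 31.2 TPM, so a single length could not link its counts to its TPM and its relative length is uncertain.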
